A study of Mus musculus with 8 samples.

Results

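The 10 genes described here were Abcg1, Abca1, Apoe, Mylip, Srebf1, Npc1, Npc2, Lipa, Nr1h3 and Nr1h2, which encode the liver X receptors (LXRs), several of their targets, and the lysosomal proteins that release cholesterol for export. They were chosen by name, with their difference between *Bacillus clausii* and *Bifidobacterium bifidum* on these arrays already known. Their symbols matched 11 of 41174 distinct probes. After a filter on dim probes, 28598 probes for 15207 genes were left, and these held 10 of the 11, 1 for each gene. The probe left out, a second probe for Mylip, was not well above background on any array.

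LXRs are nuclear receptors that bind oxidised forms of cholesterol and, paired with a retinoid X receptor, switch on genes that carry cholesterol out of the cell. Macrophages take up lipoproteins and dying cells, split the cholesteryl esters in lysosomes, move the free cholesterol to other membranes and hand it to apolipoproteins and lipoprotein particles outside the cell. A separate system, built around the sterol regulatory element binding proteins (SREBPs), switches on synthesis and uptake when sterol in the endoplasmic reticulum is low.

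The cells were RAW 264.7, a macrophage-like line from BALB/c mice, and the groups were cells given *Bacillus clausii*, *Bifidobacterium bifidum* or *Lactobacillus acidophilus*, all used as probiotics, each at 1 bacterium per cell (multiplicity of infection 1) for 6 h, and untreated cells of the same time. Cells were cultured in a medium without antibiotic. Each of the 8 two-colour Agilent arrays set the Cy5-labelled RNA of treated cells against the Cy3-labelled RNA of untreated cells, and the dyes were never swapped, so a dye effect of a probe stays in its ratio and cancels only between strains. Slide 2 held *B. clausii* replicates 1 and 2 and *B. bifidum* replicates 1 and 2. Slide 1 held replicate 3 of each of these strains and both *L. acidophilus* arrays. Nothing ties an array to a culture of its own, so a p-value speaks only of how much these arrays scatter, which could be technical scatter, and the 2 arrays per strain on a slide limit the precision of every mean.

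All 9 macrophage markers with a kept probe, of 10 listed, were well above background in untreated cells on every array. The arrays had 21508 to 26473 probes above background, except the third *B. clausii* array with 12543. That array was also marked in its header as having a poor grid, and its untreated level was apart from that on the other 3 arrays of slide 1 for all 9 of the genes that could be compared. On the log2 scale, untreated Lipa was 8.97 there and 11.97 to 12.12 on the other 3, and untreated Mylip was 11.59 there and 9.71 to 9.79 on the others. Over 14912 genes, which are not independent replicates, its untreated levels correlated with those of the other slide 1 arrays at 0.902 to 0.908, where those arrays reached 0.997 with each other. Every slide 1 value for *B. clausii* below rests on that array alone.

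On slide 2, 7 of the 10 genes were called lower and 1 higher with *B. clausii* than with *B. bifidum*, where called means an adjusted p under 0.05 from limma over all genes of the fit. Over all 15207 genes, 14.7% were called lower and 14.9% higher. The genes were chosen on this contrast, so these counts, and the values below, are a description. Abcg1 had the largest difference, then Lipa, Npc2 and Mylip, while Srebf1 was the gene called higher. In 9 genes both *B. clausii* ratios lay below both *B. bifidum* ratios, as in 30.4% of all genes, and in Srebf1 both lay above, as in 33.9%. The median difference of the 10 was -0.56 on the log2 scale, and that of all genes was 0.017. Without *B. bifidum* replicate 1 the number called lower was 4, and with the arrays centred on their median in place of the intensity-dependent (loess) normalization it was 0, with 0 genes called of all those tested.

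**Figure D1:**
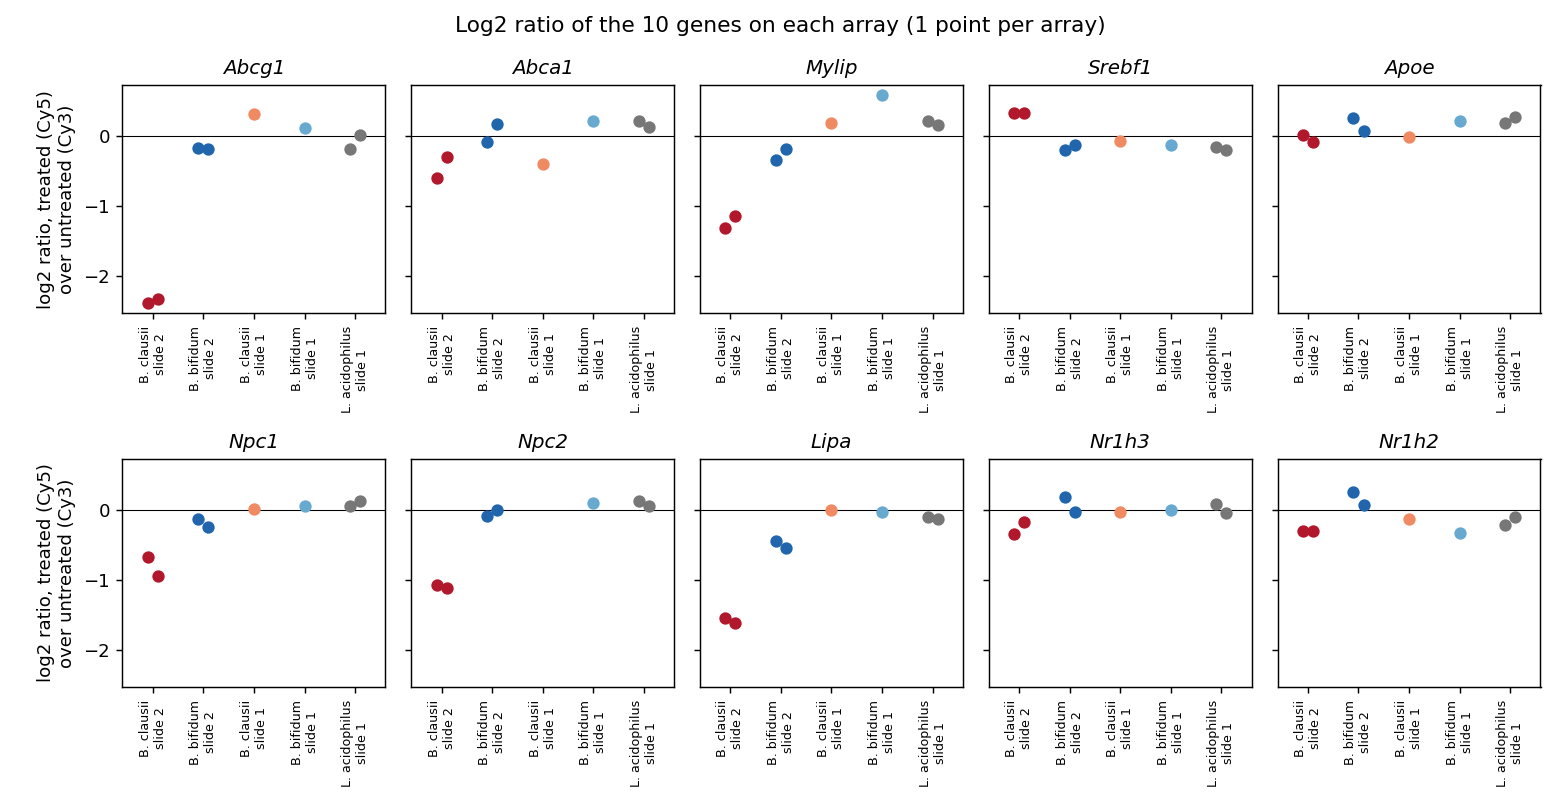
Log2 ratio of treated (Cy5) over untreated (Cy3) cells for each of the 10 genes, with 1 point per array and arrays grouped by strain and slide. The 2 slide 2 points of *B. clausii* for Abcg1 lie at -2.38 and -2.32, far below every other array, while its slide 1 point lies at 0.32.

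Abcg1, the transporter that loads cholesterol onto high-density lipoprotein, had log2 ratios of -2.38 and -2.32 with *B. clausii* on slide 2, against -0.17 and -0.18 with *B. bifidum*. The groups were far apart and neither varied much between its arrays. The background-subtracted Cy5 signals before normalization were 352 and 359.5 in *B. clausii*-treated cells, against Cy3 signals of 4102 and 3746 in the untreated cells of the same arrays. With *B. bifidum* the Cy5 signals were 2032 and 1203.5, against 3649.5 and 2090 in untreated cells. The untreated signal was thus of similar size on the 2 *B. clausii* arrays and on *B. bifidum* replicate 1, and it was the treated channel that was low with *B. clausii*. The mean ratio was -2.35 ± 0.04 with *B. clausii* and -0.18 ± 0.01 with *B. bifidum* (SD, n = 2 each), which is 5.09-fold below untreated cells with *B. clausii* and 1.13-fold below them with *B. bifidum*. The difference between the strains was -2.17 ± 0.06 (SE), or 4.51-fold, the 5th lowest of 15207 genes, and against untreated cells the *B. clausii* mean was the 3rd lowest.

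**Figure D2:**
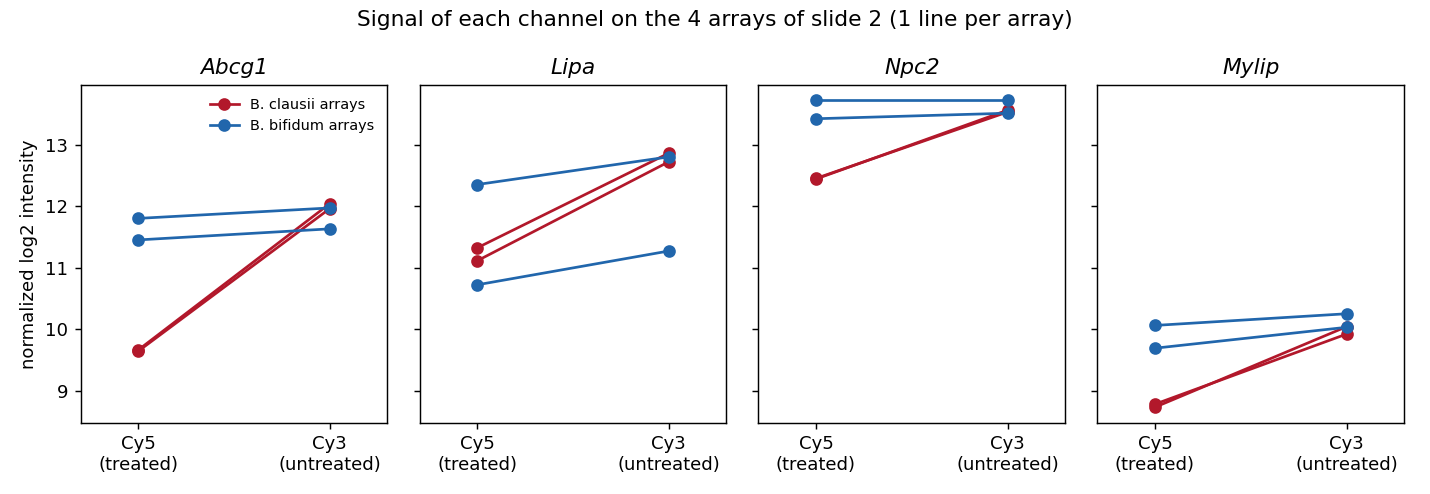
Normalized log2 intensity of the treated (Cy5, left) and untreated (Cy3, right) channel for Abcg1, Lipa, Npc2 and Mylip on the 4 arrays of slide 2, with 1 line per array. The *B. clausii* lines start low on the treated side for Abcg1 (mean 9.65, against 11.62 for *B. bifidum*), and 1 *B. bifidum* array is low in both channels for Lipa.

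Abca1, which passes cholesterol and phospholipid to lipid-poor apolipoprotein A-I, was a dim probe. Its ratios were -0.60 and -0.30 with *B. clausii* and -0.09 and 0.17 with *B. bifidum* on slide 2, a difference of -0.49 ± 0.14 (SE). The ratios did not overlap, but the treated channel was not well above background on either *B. clausii* array, with Cy5 signals of 31 and 52 against 80 and 93 with *B. bifidum*. Its level with *B. clausii* is therefore uncertain. *B. clausii*-treated cells, with a measured mean of 6.76 on the log2 scale, were 1.37-fold below the untreated cells of the same arrays at 7.21. Here the fold is the untreated mean over the treated mean. The lowest signals among probes well above background were 6.46 and 6.40 on these arrays. Abca1 lay above them, at 6.59 and 6.93, so this floor sets no bound and 1.37-fold is only the measured value. The strain difference lost its call in 10 of 16 alternatives. These included leaving out *B. clausii* replicate 1 or either *B. bifidum* array, and the value was -2.52 with the scanner's processed signals and -0.28 with median centring.

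Apoe, an apolipoprotein that macrophages secrete and that accepts cholesterol, had ratios of 0.02 and -0.08 with *B. clausii* and 0.26 and 0.07 with *B. bifidum* on slide 2. The difference, -0.19 ± 0.09 (SE), was not called. Its probe was printed 10 times on each array, and the SD over the 8 to 10 usable spots was 0.06 to 0.14 on the log2 scale.

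Mylip encodes a ubiquitin ligase, induced by LXRs, that limits the uptake of lipoprotein. Its ratios were -1.31 and -1.14 with *B. clausii* and -0.34 and -0.19 with *B. bifidum* on slide 2. The *B. clausii* mean was 2.33-fold below untreated cells and the *B. bifidum* mean 1.20-fold below them. The strains differed by -0.96 ± 0.09 (SE), with no overlap. The treated Cy5 signals were 174.5 and 192 with *B. clausii* and 466 and 456 with *B. bifidum*.

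Srebf1 encodes the SREBP that drives fatty acid synthesis and is itself an LXR target. It went the other way, with ratios of 0.33 on both *B. clausii* arrays and -0.20 and -0.13 with *B. bifidum*. The difference was 0.49 ± 0.06 (SE), or 1.41-fold. Against untreated cells it was called higher with *B. clausii*, at 1.25-fold, and called lower with *B. bifidum*, at 1.12-fold. The 2 calls of Srebf1 ran in opposite directions, and neither held with the scanner's processed signals or the deposited value table. With median centring, which moved the median of all genes to -0.303 for *B. clausii* over untreated cells, its *B. clausii* ratio was -0.33, and the higher value with *B. clausii* than with *B. bifidum* held there as a difference of 0.76 that was not called.

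The upstream sequences of Abca1 and Srebf1 are shown because, of the 10 genes, these held a match to the receptor element in the promoters searched. Their strain differences on slide 2 were -0.49 for Abca1, a dim probe whose call was lost in 10 of 16 alternatives, and 0.49 for Srebf1. RefSeq promoters, of assembly GRCm38.p6, were matched for 8 of the 10 genes (all but Abcg1 and Npc1), with 13 start sites in all. The idealised LXR element is a direct repeat with a spacer of 4 bases, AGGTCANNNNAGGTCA, where N is any base. Searched on both strands in the window from 250 bases before the start to 50 after it, and with up to 3 mismatches, it was found in 2 of the 13 promoters and in 21.9% of all 32851 promoters, so a match by itself is common. The 2 matches were close copies of each other, both on the opposite strand, and the letters they share, GGGTTACTNNCGGTCA, occurred exactly in 3 of the 32851 promoters (0.00913%). These letters were read from the 2 promoters themselves. The third was Fasn, which encodes fatty acid synthase, a known LXR and SREBP target, and whose slide 2 difference of 0.18 ± 0.07 (SE) was not called. In the 250 bases before the start, written 5′ to 3′ on the gene's strand, capitals mark the element at positions -67 to -52 of Abca1 (chr4:53159896-53160145, minus strand) and at -182 to -167 of 1 of the 3 Srebf1 starts (chr11:60210472-60210721, minus strand).
Abca1: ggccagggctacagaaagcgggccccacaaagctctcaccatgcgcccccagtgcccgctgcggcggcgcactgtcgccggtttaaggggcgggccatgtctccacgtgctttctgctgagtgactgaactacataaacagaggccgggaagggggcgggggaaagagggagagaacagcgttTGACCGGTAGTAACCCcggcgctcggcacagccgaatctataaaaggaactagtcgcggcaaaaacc
Srebf1: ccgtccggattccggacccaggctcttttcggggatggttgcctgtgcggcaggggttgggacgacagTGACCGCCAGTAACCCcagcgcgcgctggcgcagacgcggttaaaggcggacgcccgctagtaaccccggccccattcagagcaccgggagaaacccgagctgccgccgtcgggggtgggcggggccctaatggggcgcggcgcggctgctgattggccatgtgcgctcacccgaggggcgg
The E-box CACGTG was also searched and was found in 1 of the 13 promoters, that of Abca1 at position -147, and in 7.15% of all promoters. It does not overlap the element. A match is a description of letters and not of binding.

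The lysosomal genes were all called lower with *B. clausii* on the ratio of treated over untreated cells. Lipa encodes lysosomal acid lipase, which frees cholesterol from its esters. Its ratios were -1.54 and -1.62 with *B. clausii* and -0.45 and -0.55 with *B. bifidum* on slide 2, so *B. clausii* was 2.99-fold and *B. bifidum* 1.42-fold below untreated cells. The difference between strains was -1.08 ± 0.07 (SE), or 2.11-fold, and ranked 101st from the lowest. The brightness of its spot differed between arrays: the untreated level was 11.27 on *B. bifidum* replicate 2 and 12.72 to 12.86 on the other 3. In the treated channel alone, the *B. clausii* mean was therefore only 0.32 below that of *B. bifidum* on the log2 scale, but 1.14 below *B. bifidum* replicate 1.

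Npc2, a soluble lysosomal protein that takes up the freed cholesterol, had ratios of -1.07 and -1.12 with *B. clausii* and -0.09 and 0.00 with *B. bifidum*. With *B. bifidum* it stood close to untreated cells, and with *B. clausii* it was 2.14-fold below them. The strains differed by -1.05 ± 0.06 (SE), the 109th lowest difference. Its signals were high and its untreated level was within 0.22 over the 4 arrays. The treated channel alone gave -1.12, close to the ratio's value.

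Npc1, the membrane protein that receives cholesterol from Npc2 and passes it out of the lysosome, had ratios of -0.68 and -0.95 with *B. clausii* and -0.13 and -0.24 with *B. bifidum*. The difference of -0.62 ± 0.11 (SE) was the smallest of the lysosomal genes. As for Lipa, *B. bifidum* replicate 2 was dim in both channels, with an untreated level of 8.51 against 9.88 to 9.95 on the other 3 arrays. In the treated channel alone the *B. clausii* mean of 9.10 was 0.10 above the *B. bifidum* mean of 9.01, and 0.65 below *B. bifidum* replicate 1. The call was lost when either *B. bifidum* array was left out, with differences of -0.57 without replicate 1 and -0.68 without replicate 2.

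The receptors themselves differed less. Nr1h2, which encodes LXRβ, had ratios of -0.30 and -0.31 with *B. clausii* and 0.25 and 0.07 with *B. bifidum*, a difference of -0.46 ± 0.08 (SE). Nr1h3, which encodes LXRα and is itself an LXR target in human macrophages, had ratios of -0.35 and -0.18 with *B. clausii* and 0.18 and -0.03 with *B. bifidum*. Its difference of -0.34 ± 0.10 (SE) was not called. Both *B. clausii* ratios lay below both *B. bifidum* ratios, as in 30.4% of all genes. Against untreated cells its *B. clausii* mean was -0.27, but 0.02 with the scanner's processed signals. The untreated level of Nr1h2 was 8.61 on *B. bifidum* replicate 2 and 10.09 to 10.28 on the other 3 arrays, and its treated channel alone ran the other way, 0.44 above *B. bifidum*, or 0.40 below when set against replicate 1 only.

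Set against untreated cells on slide 2, 8 of the 10 genes were called lower with *B. clausii* and 1, Srebf1, higher, beside 30.3% and 25.7% of all genes. Apoe, with a mean of -0.03 ± 0.07 (SD, n = 2), was the gene not called. With *B. bifidum*, 4 were called lower and 0 higher, beside 23.6% and 15.1% of all genes. Those 4 were Lipa at -0.50, Mylip at -0.27, Abcg1 at -0.18 and Srebf1 at -0.16, and with either *B. bifidum* array left out 1 gene was called lower. Of all genes, 18.1% were called in either direction without replicate 1 and 24.7% without replicate 2, in place of 38.7%. Both comparisons share arrays with the contrast on which the genes were chosen, and the median of the 10 was -0.63 with *B. clausii* and -0.10 with *B. bifidum*.

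The slide 1 arrays had no part in that contrast. There, none of 15075 genes was called between *B. clausii* and *B. bifidum* by limma (0%), with 1 array per strain and the spread taken from the *L. acidophilus* pair. At an unadjusted p under 0.05, 14.7% of genes passed, 2 of the 9 measured members among them. These were Abca1, with ratios of -0.40 with *B. clausii* and 0.22 with *B. bifidum* and a difference of -0.62 ± 0.10 (SE, adjusted p = 0.301), and Mylip, with 0.19 with *B. clausii* and 0.58 with *B. bifidum* and a difference of -0.39 ± 0.10 (SE, adjusted p = 0.301). Abcg1 had a ratio of 0.32 with *B. clausii* and 0.12 with *B. bifidum*, a difference of 0.20 with a 95% interval of -0.17 to 0.57 (adjusted p = 0.517). Its sign was opposite to that on slide 2, and the interval takes its spread from the *L. acidophilus* pair and not from the 2 arrays compared. Lipa differed by 0.02, with an interval of -0.23 to 0.28 (adjusted p = 0.935), and Npc1 by -0.04, with an interval of -0.31 to 0.23 (adjusted p = 0.864). Npc2 had no value, since its spot on the *B. clausii* array was marked as an outlier. On that array the Lipa probe gave background-subtracted signals of 59 in the treated and 139 in the untreated channel, where the other slide 1 arrays gave 8267 to 13477 and 12642 to 13399.5. Npc1 and Nr1h2 were not well above background in its untreated channel.

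The difference between the strains was also set side by side for the slides in a fit of all 8 arrays. Since its slide 2 side is the contrast on which the genes were chosen, and its slide 1 side is 1 array per strain, it is given as a description with no p. The slide 2 difference minus that of slide 1 was -2.37 ± 0.14 (SE) for Abcg1 and -1.10 ± 0.11 (SE) for Lipa. It was past limma's threshold for these and for Nr1h2, Mylip and Srebf1, 5 of the 9 measured genes, beside 18.0% of all genes, and nothing is read from that count. What part the poor grid of the third *B. clausii* array has in these values cannot be told apart from the slide, as that array supplies the only *B. clausii* values of slide 1. *B. bifidum* can be set beside itself without it. Its Lipa ratio was -0.03 on slide 1 and -0.45 and -0.55 on slide 2, and its Mylip ratio was 0.58 on slide 1 and -0.34 and -0.19 on slide 2. Its Nr1h2 ratio was -0.33 on slide 1 and 0.25 and 0.07 on slide 2, and its Abcg1 ratio was 0.12 on slide 1 and -0.17 and -0.18 on slide 2. Srebf1 and Apoe were closer between the slides with *B. bifidum*. Srebf1 was -0.13 on slide 1 and -0.20 and -0.13 on slide 2, and Apoe was 0.21 on slide 1 and 0.26 and 0.07 on slide 2.

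**Figure D3:**
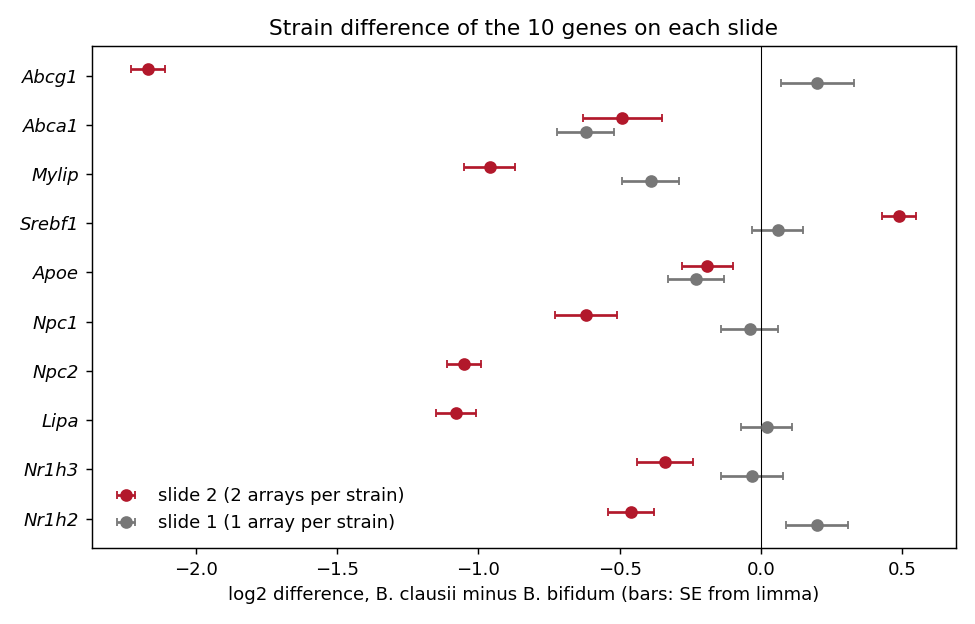
Log2 difference between *B. clausii* and *B. bifidum* for each gene on slide 2 (2 arrays per strain) and on slide 1 (1 array per strain), with bars for the SE from limma. Abcg1 and Lipa lie at -2.17 and -1.08 on slide 2 and at 0.20 and 0.02 on slide 1, and Npc2 has no slide 1 value.

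With *L. acidophilus* the ratios of the 10 genes lay between -0.22 and 0.27 on the 2 arrays, and the median over the genes was 0.05. None was called by limma, as none of the 15207 genes was (0%), while 25.8% of all genes and 5 of the 10 passed at an unadjusted p under 0.05. Apoe had the smallest p, with ratios of 0.18 and 0.27 and a mean of 0.23 ± 0.05 (SE, limma adjusted p = 0.109). Abcg1 had ratios of -0.18 and 0.02, a mean of -0.08 with a 95% interval of -0.27 to 0.10 (limma adjusted p = 0.459).

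A further 5 groups of genes around the pathway were counted on slide 2 for *B. clausii* against *B. bifidum*. Among 17 measured further LXR targets, 6 were called lower and 1 higher, beside 14.7% lower and 14.9% higher of all genes, and the median was -0.17. Arl4c, a small GTPase of the ADP-ribosylation factor family, had ratios of -0.16 and -0.17 with *B. clausii* and 1.42 and 1.32 with *B. bifidum*. Its difference of -1.53 ± 0.07 (SE) was second in size to that of Abcg1 among the genes called lower here, with the *B. clausii* ratios near 0 and the *B. bifidum* ratios well above it. Smpdl3a, a secreted phosphodiesterase, had -0.94 on both *B. clausii* arrays and -0.18 and -0.10 with *B. bifidum*, a pattern like that of Npc2. Lpl, which hydrolyses lipoprotein triglyceride, differed by -0.58 ± 0.09 (SE), with mean ratios of 0.19 with *B. clausii* and 0.78 with *B. bifidum*. Cd5l, a secreted macrophage protein, differed by -0.62 ± 0.10 (SE), and its treated channel was not well above background on either *B. clausii* array. The 10 targets not called had differences between -0.30 and 0.18.

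The genes of SREBP processing ran the other way: 6 of 11 were called higher with *B. clausii* and 0 lower, beside 14.9% and 14.7% of all genes, and the median was 0.25. Insig1, which retains the SREBPs in the endoplasmic reticulum, had ratios of 0.51 and 0.37 with *B. clausii* and 0.04 and 0.03 with *B. bifidum*, a difference of 0.41 ± 0.07 (SE). Srebf2, the SREBP of cholesterol synthesis, differed by 0.26 ± 0.07 (SE), with ratios of 0.06 and -0.06 with *B. clausii* and -0.29 and -0.23 with *B. bifidum*. It thus stood near untreated cells with *B. clausii* and below them with *B. bifidum*. Srebf1, described above, was also higher with *B. clausii* than with *B. bifidum*. Against untreated cells, 6 of the 11 were called higher and 1 lower with *B. clausii*, beside 25.7% and 30.3% of all genes.

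In the group for lipoprotein and sterol uptake, 5 of 9 were called lower and 2 higher, beside 14.7% and 14.9% of all genes, and the median was -0.41. Lrp1, a large endocytic receptor, had ratios of -0.76 and -0.74 with *B. clausii* and 0.43 and 0.54 with *B. bifidum*, a difference of -1.23 ± 0.07 (SE). The scavenger receptors Cd36 and Msr1 differed by -0.74 ± 0.07 and -0.70 ± 0.06 (SE). Among 23 genes of sterol transport, esterification and oxysterol synthesis, 9 were called lower and 2 higher, beside 14.7% and 14.9% of all genes. Stard4, a carrier that shuttles cholesterol between membranes and is an SREBP target, had 0.91 on both *B. clausii* arrays and -0.98 and -0.81 with *B. bifidum*, a difference of 1.80 ± 0.08 (SE). Nceh1, a neutral cholesteryl ester hydrolase, differed by -1.08 ± 0.06 (SE), the lysosomal membrane protein Lamp1 by -0.54 ± 0.07 (SE) and Anxa2, a membrane-binding annexin, by -0.40 ± 0.06 (SE). Among 13 receptor partners and coregulators, 2 were called lower and 1 higher, with a median of -0.01. That share is near the 14.7% lower of all genes and is no result about the group. The called genes were the coactivators Ppargc1b at -0.44 and Ncoa1 at -0.31, and the corepressor Nrip1 at 0.36. With median centring 0 genes were called in each of the 5 groups. With the scanner's processed signals 4 further LXR targets and 1 uptake gene were called lower, 1 transport gene lower and 1 higher, and 0 genes of SREBP processing or among the coregulators. The deposited table gave the same counts, except 3 further LXR targets. The genes named here kept their sign under these alternatives. On slide 1 no gene of the 5 groups was called between the strains, as no gene of the array was.

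**Figure D4:**
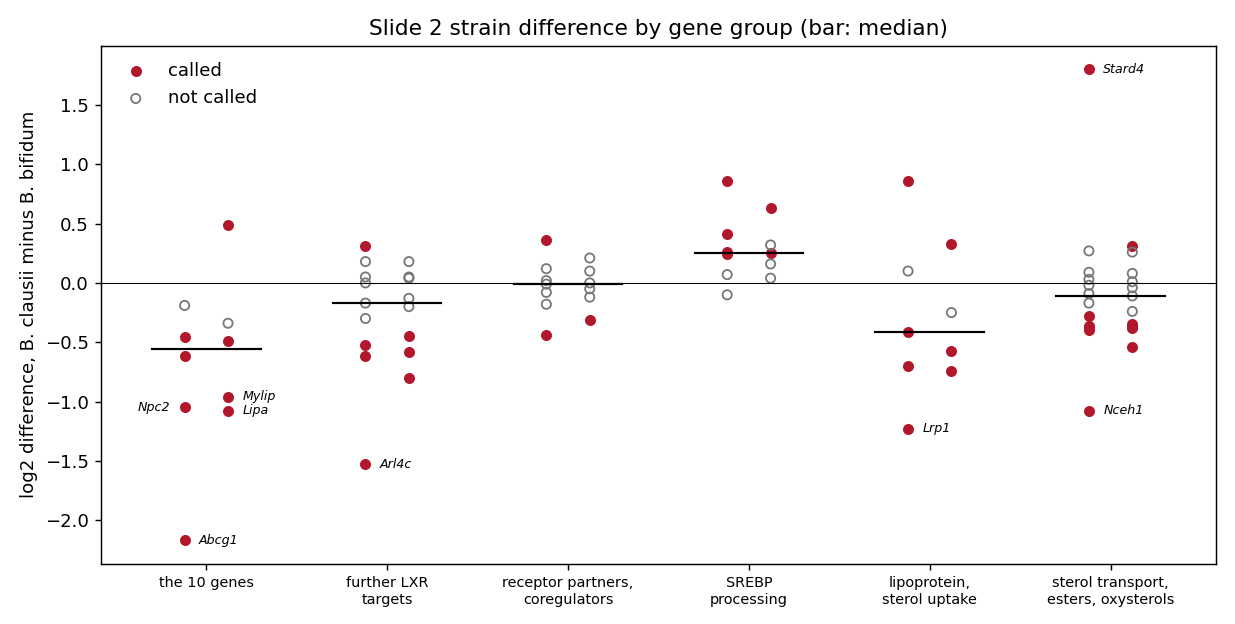
Slide 2 log2 difference between *B. clausii* and *B. bifidum* for the 10 genes and for the 5 further groups, with 1 point per gene, filled where called at an adjusted p under 0.05, and a bar at each median. The median lies at -0.56 for the 10 genes and at 0.25 for SREBP processing, where no gene is called lower.

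Markers of the cells moved on slide 2 as well. Of the 9 macrophage markers, 6 were called lower with *B. clausii* than with *B. bifidum* and 0 higher, beside 14.7% lower and 14.9% higher of all genes, with Mpeg1 at -1.28 and Lyz2 at -1.02, and their summed treated intensity was 61361 to 62061 with *B. clausii* and 70773 to 71963 with *B. bifidum*. Of 6 osteoclast markers, 4 were lower, with Acp5 at -1.16, and their summed intensity was 1833 to 1938 with *B. clausii* and 1511 to 2479 with *B. bifidum*. Among the markers of other cell types, 1 of 4 lymphocyte markers was higher and 1 of 4 dendritic cell markers lower, and none of the fibroblast, epithelial, neutrophil or hepatocyte markers was called. The fibroblast markers Dcn and Pdgfrb, the epithelial markers Epcam and Krt19, the lymphocyte markers Cd3g and Ms4a1, the dendritic cell marker Ccr7 and the hepatocyte marker Ttr were not well above background in untreated cells on any array. The untreated signals of the slides were not alike, with summed neutrophil markers at 21584 to 50639 on slide 1 and 218 to 292 on slide 2. Summed macrophage markers were 31890 to 353658 on slide 1 and 57210 to 80540 on slide 2. These sums are background-subtracted signals, not normalized between slides, and only slide 1 was scanned with an extended range. The gap between the slides was not alike for all marker groups. Summed osteoclast markers were 2981 to 17984 on slide 1 and 746 to 1726 on slide 2. Summed fibroblast markers were 408 to 550 and 194 to 377, dendritic cell markers 390 to 759 and 377 to 724, and hepatocyte markers 156 to 232 and 109 to 143. The cause of the gap was not tested. The part of these markers in the results above was not tested, and fewer cells of a kind and less RNA per cell cannot be told apart in such samples.

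Over all 8 arrays, the genes whose log2 ratios were most like those of Abcg1 by Pearson's r were Nceh1 (0.997), Ripk1 (0.997) and Cat (0.995). On slide 2 the means with *B. clausii* were -1.23 for Nceh1, -0.77 for Ripk1, a kinase of cell death signalling, and -1.03 for Cat, the enzyme catalase. With *B. bifidum* they were -0.15 for Nceh1, 0.07 for Ripk1 and -0.11 for Cat. For Lipa they were Serpinf1 (0.998), Tmem273 (0.997) and Fbxl5 (0.997). These had means of -1.03, -1.74 and -0.75 with *B. clausii* and of -0.26, -0.39 and -0.17 with *B. bifidum*. All of these values of r rest on 8 arrays, of which the 2 *B. clausii* arrays of slide 2 stand apart, and the arrays share slides.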

How the data were processed

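The 10 genes and the gene groups were chosen with earlier results of these data known. The deposited scanner files hold linear intensity of each spot and its background, written by Agilent Feature Extraction, version 10.7.3.1 per the file headers and 10.5.1.1 in the processing notes of the submitters. The files' log10 ratio of Cy5 over Cy3, per the file headers, equals the authors' deposited value table within 0.005 on every array, with column medians of 0. That table and the software's processed intensity were used as alternatives.

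With limma 3.58.1 in R 4.3.3, median signals (mean signals were not used here) were corrected by normexp (offset 50) and log2 ratios normalized within each array by loess, control spots at weight 0. Outlier spots were removed, saturated ones kept. The 10 genes had no saturated spot. Replicate spots were averaged. Probes had to be well above background, in Cy5 or Cy3, on 2 or more of the 8 arrays, and the brightest kept probe stood for a gene. Transcripts in the files were named through a RefSeq table of GRCm38.p6 (29174 probe features named, 14205 not). The files name build mm9, so no probe coordinates are given.

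The 4 arrays of slide 2 were fitted with lmFit and eBayes, then the 4 of slide 1, and all 8 with a mean per strain and slide for the comparison of slides. P-values were adjusted by Benjamini-Hochberg over all genes (threshold 0.05). Genes chosen on slide 2 get no p there or in the comparison of slides. Steps were tested on simulated data. Named genes were the 10, up to 4 called genes per group with the largest slide 2 differences, and the 3 genes most correlated with Abcg1 and with Lipa. Some named genes are not reported here. Fasn was named after its promoter match was seen. Alternatives were other background corrections, normalizations, filters, probe choices, variance priors and array sets.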

Additional observations from a re-analysis of the deposited data

Results flagged for a closer look

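The difference between *B. clausii* and *B. bifidum* on slide 2, minus that on slide 1, was past limma's threshold for 5 genes in a fit of all 8 arrays. The genes were chosen on the slide 2 difference and slide 1 has 1 array per strain, so these are values with no p. It was -2.37 ± 0.14 (SE) for Abcg1, with differences of -2.17 on slide 2 and 0.20 on slide 1. It was -1.10 ± 0.11 (SE) for Lipa, with -1.08 on slide 2 and 0.02 on slide 1, and -0.66 ± 0.14 (SE) for Nr1h2, with -0.46 on slide 2 and 0.20 on slide 1. It was -0.57 ± 0.15 (SE) for Mylip, with -0.96 on slide 2 and -0.39 on slide 1, and 0.43 ± 0.10 (SE) for Srebf1, with 0.49 on slide 2 and 0.06 on slide 1. All 5 slide 1 values rest on the third *B. clausii* array, and without it no such value can be computed.

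The untreated (Cy3) levels on the third *B. clausii* array stood apart from those of the other 3 arrays of slide 1 by Dixon's test for all 9 genes compared, on the normalized log2 scale. They were lower for Abcg1 (9.90, against 11.27 to 11.52), Npc1 (8.02, against 9.55 to 9.79), Lipa (8.97, against 11.97 to 12.12), Srebf1 (10.87, against 13.04 to 13.26) and Nr1h2 (8.51, against 10.32 to 10.55). They were higher for Abca1 (9.08, against 7.55 to 7.64), Mylip (11.59, against 9.71 to 9.79), Nr1h3 (9.92, against 8.39 to 8.44) and Apoe (9.26, against 8.78 to 8.81). On slide 2, *B. bifidum* replicate 2 stood apart for 3 of 10 genes, Npc1 (8.51, against 9.88 to 9.95), Lipa (11.27, against 12.72 to 12.86) and Nr1h2 (8.61, against 10.09 to 10.28). For 1 gene, chance would give such a result in about 1 in 20 groups of arrays. The genes of an array are not independent, so this rate does not apply to the counts of genes given here.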

How the results depend on the processing

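For *B. clausii* against *B. bifidum* on slide 2, the members called (7 lower, 1 higher) were 2 and 0 with the slide as a block over all 8 arrays, with the deposited table and with the scanner's processed signals, and 0 and 0 with median centring. The number of genes called of all tested was then 234, 265, 343 and 0, against 4505. Leaving out 1 array gave 4 to 8 lower. No gene of the 10 changed the sign of this difference under the alternatives run. Abcg1 ranged from -2.49 to -1.38, the smallest with the slide as a block, and kept its call in 15 of 17 alternatives. Against untreated cells, *B. clausii* had 0 of the 10 called higher, in place of 1, under the slide block, the deposited table, median centring and processed signals. For *B. bifidum*, 4 lower became 0 with the slide block, the deposited table and processed signals, 1 with an offset of 10 (chosen after seeing the data) and 1 to 5 when an array was left out. Its 0 higher became 1 with an intensity trend and robust prior and 2 with no background correction or with a strict filter. On slide 1, the strain contrast had 1 higher and 3 lower with the trend and 2 lower with the strict filter, in place of 0, and 2149 and 310 genes called in all. *L. acidophilus*, with 0 called, had 4 higher and 3 lower with the trend (4773 genes in all), 3 and 1 with the strict filter (2418), 1 higher with median centring (1614) and 1 lower with a mean per strain and slide over 8 arrays (1849). The comparison of slides (4 lower, 1 higher) had 2 lower with the deposited table, processed signals and the offset of 10, 0 with median centring, and 0 higher in these 4 and with no background correction or no filter. Median centring moved the median of all genes over untreated cells on slide 2 to -0.303 for *B. clausii* and -0.417 for *B. bifidum*, and that of *L. acidophilus* to 0.141. The share of higher genes among those called was then 1.28% in place of 45.9% for *B. clausii* and 0.196% in place of 38.9% for *B. bifidum*. Between the strains on slide 2 it was 32.7% with processed signals and 33.6% with the deposited table in place of 50.4%, and for the comparison of slides 32.9% with the deposited table in place of 44.8%. The replicate block, for numbers that did not pair the arrays (deviations of same-numbered arrays correlated at 0.0749), left 7 lower and 1 higher, with 4331 genes called in all. The cause of these changes was not tested. On slide 2 the treated channel of Abca1 was not well above background on either *B. clausii* array. On the third *B. clausii* array, which had 12543 probes above background, Npc1 and Nr1h2 were not well above background in the untreated channel.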
